A study of Cricetulus griseus with 8 samples.

Results

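The transcripts described here belong to 10 amino acid transporter genes of the SLC1, SLC3, SLC7 and SLC38 families, Slc1a4, Slc1a5, Slc3a2, Slc7a1, Slc7a5, Slc7a6, Slc7a7, Slc7a11, Slc38a1 and Slc38a2. They were chosen by gene symbol, with earlier results of these data known, and all 10 were found among the 26776 named genes of the deposited table. RNA was sequenced from LR73 cells, a fibroblast-like line derived from Chinese hamster ovary cells that is used as a phagocyte, in 2 groups of 4 libraries. One group was cultured alone and the other together with apoptotic Jurkat cells, a human T cell leukaemia line that had been irradiated with UV-C and cultured for some hours before it was added. All cells of both groups shared 1 medium with serum, and the labels name no further genotype or agent, although the column names of both groups carry a prefix, GFP, that the labels do not explain. The 4 libraries of each group are described as biological replicates, but nothing says how the cultures were separated. The p-values here judge group differences against the spread between these libraries, whose independence is not known.

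Amino acids cross the plasma membrane through families of carriers with overlapping substrates. SLC1A4 (ASCT1) and SLC1A5 (ASCT2) exchange small neutral amino acids, glutamine among them for SLC1A5, in a sodium-dependent manner. SLC38A1 and SLC38A2 (SNAT1 and SNAT2) take up glutamine, alanine and other small neutral amino acids together with sodium. SLC7A1 (CAT-1) carries arginine, lysine and ornithine on its own, whereas the light chains SLC7A5 (LAT1), SLC7A6 (y+LAT2), SLC7A7 (y+LAT1) and SLC7A11 (xCT) reach the surface only when linked to the heavy chain SLC3A2 (4F2hc, CD98). LAT1 exchanges leucine and other large neutral amino acids for glutamine, the y+L carriers export cationic amino acids in exchange for neutral ones and sodium, and xCT imports cystine, a source of cysteine for glutathione, in exchange for glutamate. Several of these genes, Slc3a2, Slc7a5, Slc7a11, Slc7a1, Slc1a4, Slc1a5 and Slc38a2, are known targets of ATF4, the transcription factor of the amino acid response. A phagocyte that digests a corpse receives its amino acids through the lysosome as well as through these surface carriers.

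Between 22.7 and 29.7 M (mega) reads per library fell in named genes. Alone library 1 stood apart: for a typical tested gene it differed from the mean of the rest of its group by 0.17 on the log2 scale (median absolute deviation over genes), against 0.05 to 0.10 for the other 7 libraries. For the transporters and gene lists, calls and counts of called genes that changed without it are also given without it. Of 13 fibroblast markers, 9 were high enough to be tested. By limma 1 of these rose and 1 fell, where 6.36% of all tested genes were higher and 5.31% lower. Vim, the intermediate filament gene, had 111964 ± 4744 normalized counts alone and rose by 0.22 on the log2 scale with apoptotic cells (adjusted p = 0.0028 by limma), and the matrix proteoglycan gene Dcn fell, with 953 ± 41.0 and 767 ± 24.2. Col1a1, the main collagen gene of fibroblasts, was near 0 in both groups (0.47 ± 0.95 and 0.52 ± 0.60), and Thy1 had no read. Of 28 T cell markers in the table, those without a read in any library included Cd3d, Cd3g and Cd2. At least 1 read was found for 15 of the 28 alone and for 21 in co-culture. Of 7 that could be tested, Cd28 and Themis were lower in co-culture by limma and none was higher, against 5.31% and 6.36% of all tested genes. Cd3e, a T cell receptor subunit, was at 0 alone and 0.49 ± 0.98 normalized counts in co-culture, and Ptprc (CD45) at 0.76 ± 1.52 and 3.59 ± 2.29. The summed level of the 28 markers was 1763 to 1931 normalized counts alone and 1655 to 1716 in co-culture. Most of it came from genes expressed in the cells alone, such as Tcf7 (677 ± 38.8 alone) and Themis (631 ± 39.3 alone). For 18 of the markers, 5 or fewer reads were found over all alone libraries. They had 9 reads alone and 50 in co-culture, with 10 higher and 1 lower in co-culture. Because they were picked for low values in the cells alone, the choice itself favours higher values in co-culture. The summed level of 5 myeloid markers was 37.0 to 71.7 normalized counts alone and 49.4 to 65.9 in co-culture, and that of 6 epithelial markers, of which Krt18, Krt19 and Cldn4 had no read, 236 to 255 and 194 to 221. The part of RNA from Jurkat cells in the results below was not tested. In bulk RNA, a change in the RNA per cell and a change in which cells are present cannot be told apart.

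With apoptotic cells, 1 of the 10 transporters rose and 1 fell. Slc7a7, the light chain y+LAT1, rose by 48.9% (95% interval 34.0 to 65.5%), and Slc1a4, the neutral amino acid exchanger ASCT1, fell by 31.4% (interval -40.9 to -20.4%). Of the 9 transporters with enough reads to be tested, 7 did not pass the threshold, among them the heavy chain Slc3a2, LAT1 and the glutamine carriers Slc1a5 and Slc38a2. The tenth, Slc38a1, had no read. A gene was tested when its mean was at least 10 normalized counts, and called at a Benjamini-Hochberg adjusted p under 0.05 over all tested genes in limma. By that rule 6.36% of all tested genes were higher and 5.31% lower with apoptotic cells, so 1 of 9 in each direction is near the background. These shares are 858 and 716 of 13494 genes, and with alone library 3 or any 1 co-culture library left out 416 to 497 genes were higher and 356 to 414 lower. With all libraries, the groups did not overlap in 2 of the 9, the same genes that were called, against 21.2% of all tested genes. The median log2 fold change of the 9 was -0.02, and that of all tested genes 0.001. For 5 of the 7 transporters that were not called, Slc1a5, Slc38a2, Slc3a2, Slc7a5 and Slc7a6, the 95% interval lay inside a 1.2-fold change in either direction, while the intervals of Slc7a1 and Slc7a11 were wider.

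**Figure D1:**
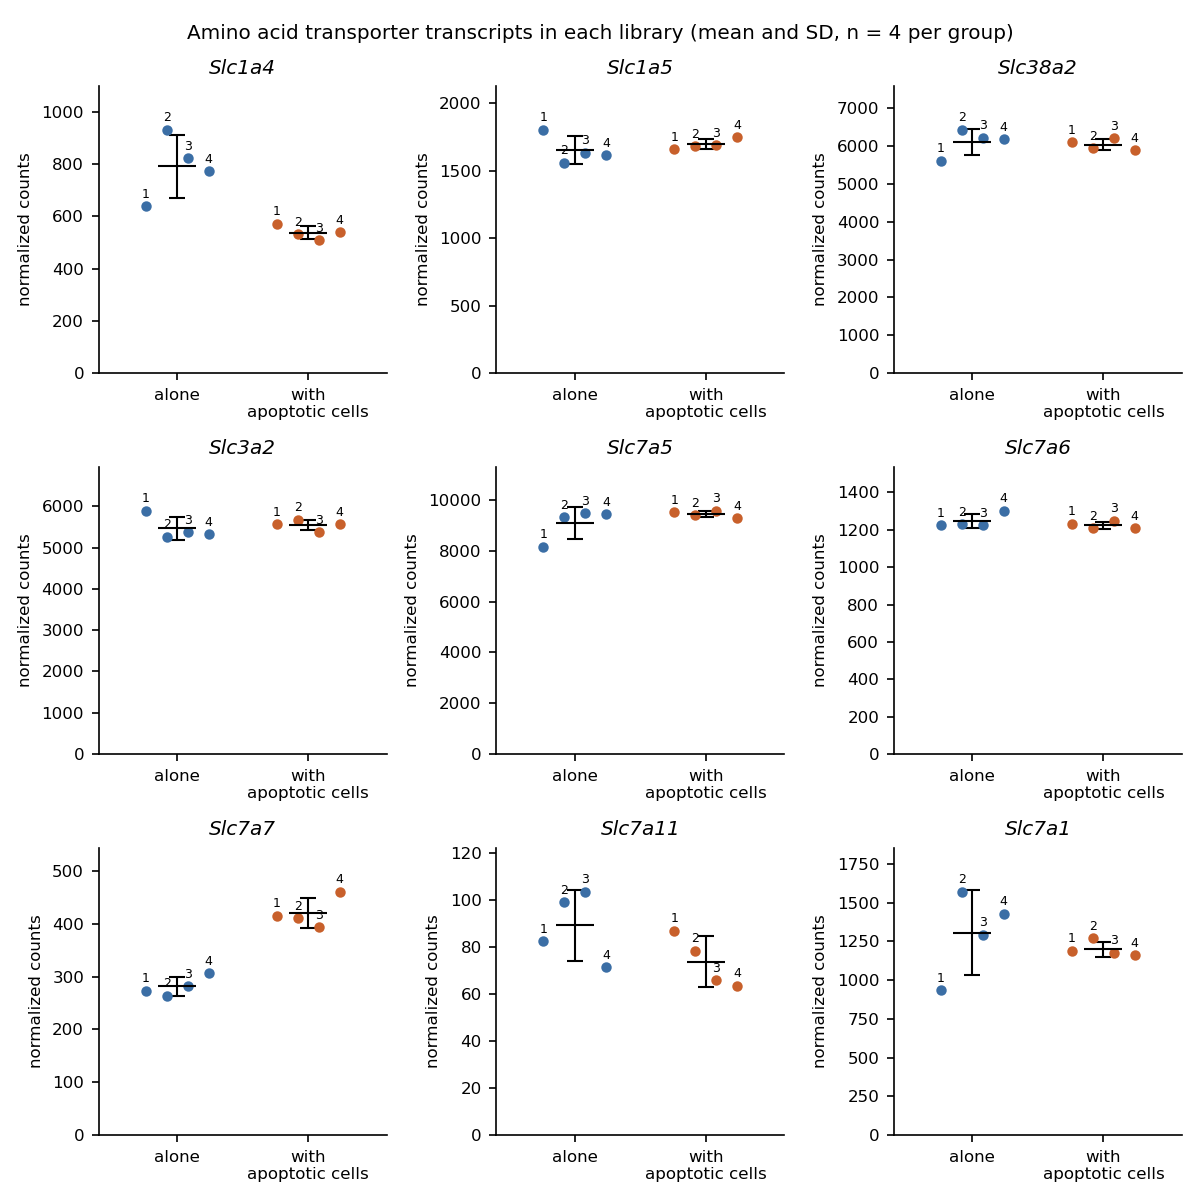
Normalized counts (vertical axes, from 0) of the 9 tested transporters in each library, with library numbers beside the points and each group shown as mean and SD (4 libraries). The groups are separate for Slc1a4 (640.0 to 932 alone, 509 to 573 with apoptotic cells) and Slc7a7 (264 to 307 and 393 to 461) and overlap in the other 7, where alone library 1 often lies away from libraries 2 to 4.

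Slc1a4 was expressed at 640.0, 932, 822 and 773 normalized counts in alone libraries 1 to 4, and at 573, 533, 509 and 539 in the co-cultures. Every co-culture lay below every library of cells alone, and the lowest of the latter was alone library 1. The means were 792 ± 121 and 538 ± 26.4 (SD, n = 4 each), -0.54 on the log2 scale (SE 0.10, adjusted p = 0.00594 by limma). Among all genes called lower, it ranked 97 of 716 by the size of the fall. The call held in all 18 alternatives that were run (limma, edgeR or DESeq2 adjusted p = 8.29e-09 to 0.0283), with log2 fold changes of -0.64 without alone library 1 to -0.46 without alone library 2. In the authors' deposited table Slc1a4 had a log2 fold change of -0.44 and an adjusted p of 6.46e-06.

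Its paralog Slc1a5, the glutamine exchanger ASCT2, had 1802, 1558, 1633 and 1612 normalized counts alone and 1659, 1683, 1687 and 1746 in co-culture. The highest value was that of alone library 1, and the other 3 alone libraries lay below all co-cultures. The log2 fold change was 0.04 (SE 0.05, 95% interval -0.07 to 0.14, adjusted p = 0.640 by limma), and 0.08 without alone library 1 (adjusted p = 0.0763 by limma). Within each library, the log2 level of Slc1a4 less that of Slc1a5 averaged -1.07 ± 0.31 alone and -1.65 ± 0.08 in co-culture (SD, n = 4 each). These differences compare libraries, not the abundance of the 2 proteins or mRNAs, since no transcript lengths were used. The shift of -0.58 (-0.72 to -0.47 with any 1 library left out) had an exact permutation p = 0.0286, two-sided, the smallest that 4 against 4 libraries allow. This contrast was chosen after the values were seen, together with the one of Slc7a7 and Slc7a6 given next (adjusted exact permutation p = 0.0286 over the 2). Each sets a transporter already called against a paralog that was not, so these p-values add no evidence to the calls.

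Slc7a7 had 273, 264, 282 and 307 normalized counts alone and 416, 410.2, 393 and 461 with apoptotic cells. The groups were well apart, and within each of them library 4 was the highest. The means were 282 ± 18.4 and 420.1 ± 28.8 (SD, n = 4 each), 0.57 on the log2 scale (SE 0.07, adjusted p = 0.00064 by limma), which placed Slc7a7 at rank 72 of the 858 genes called higher. All 18 alternatives called it (limma, edgeR or DESeq2 adjusted p = 3.78e-09 to 0.0041), and alone library 1 mattered little, with 0.56 without it. The authors' deposited table gave 0.491 with an adjusted p of 2.97e-09. In the RefSeq gene table of another assembly (CriGri-PICRH-1.0) Slc7a7 overlaps Tfec, a transcription factor gene that was low here, at 11.7 ± 5.13 normalized counts alone and 4.81 ± 2.78 in co-culture. Neither the build nor the strand setting of the counting is given in the sources used here.

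Slc7a6, which encodes y+LAT2, the carrier most similar in transport to y+LAT1, varied least of the 9 between the alone libraries. It had 1227, 1229.7, 1225 and 1302 normalized counts alone and 1233, 1209, 1249 and 1210.3 in co-culture, with a coefficient of variation of 3.01% and 1.56%. The groups overlapped, and alone library 4 was the highest. Its log2 fold change was -0.02 (SE 0.04, 95% interval -0.11 to 0.06, adjusted p = 0.714 by limma). Slc7a6os, its neighbour in the RefSeq table, had 557 ± 47.1 and 593 ± 50.1 normalized counts. Slc7a7 less Slc7a6 within a library was -2.14 ± 0.06 alone and -1.54 ± 0.11 with apoptotic cells on the log2 scale (SD, n = 4 each). The shift of 0.60 (0.55 to 0.64 with any 1 library left out, exact permutation p = 0.0286, two-sided) describes an unequal change of these y+L carrier transcripts, in a contrast chosen after the values were seen. Its p adds no evidence to the call of Slc7a7.

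The heavy chain Slc3a2 had 5893, 5264, 5378 and 5325 normalized counts alone and 5562, 5682, 5370.1 and 5570.3 in co-culture. Alone library 1 was the highest of all 8. The log2 fold change was 0.02 (SE 0.04, 95% interval -0.07 to 0.11, adjusted p = 0.757 by limma), and 0.06 without alone library 1 (adjusted p = 0.0948 by limma). Slc7a5, the LAT1 light chain, had 8156, 9329, 9474 and 9451 normalized counts alone and 9512, 9390.3, 9573 and 9289 in co-culture. Apart from alone library 1, the 7 libraries differed little and were mixed. Its log2 fold change was 0.06 (SE 0.05, 95% interval -0.05 to 0.16, adjusted p = 0.486 by limma), and 0.003 without alone library 1 (adjusted p = 0.934 by limma).

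Slc7a11, the xCT light chain, had the fewest reads of the 9, with 82.6, 99.2, 104 and 71.4 normalized counts alone and 86.9, 78.5, 65.9 and 63.6 in co-culture. Co-culture libraries 1 and 2 lay within the range of cells alone, and libraries 3 and 4 below it. The means were 89.2 ± 14.9 and 73.7 ± 10.95 (SD, n = 4 each). The log2 fold change of -0.27 had an SE of 0.15 and a 95% interval of -0.59 to 0.05 (adjusted p = 0.272 by limma), a range of -33.5 to 3.84% of the level alone. With any 1 library left out it was -0.37 to -0.19, and none of 17 alternatives that tested it called it. In the RefSeq table its span overlaps other genes, one of which, LOC100757728, had 96.7 ± 9.56 and 91.3 ± 13.5 normalized counts here.

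**Figure D2:**
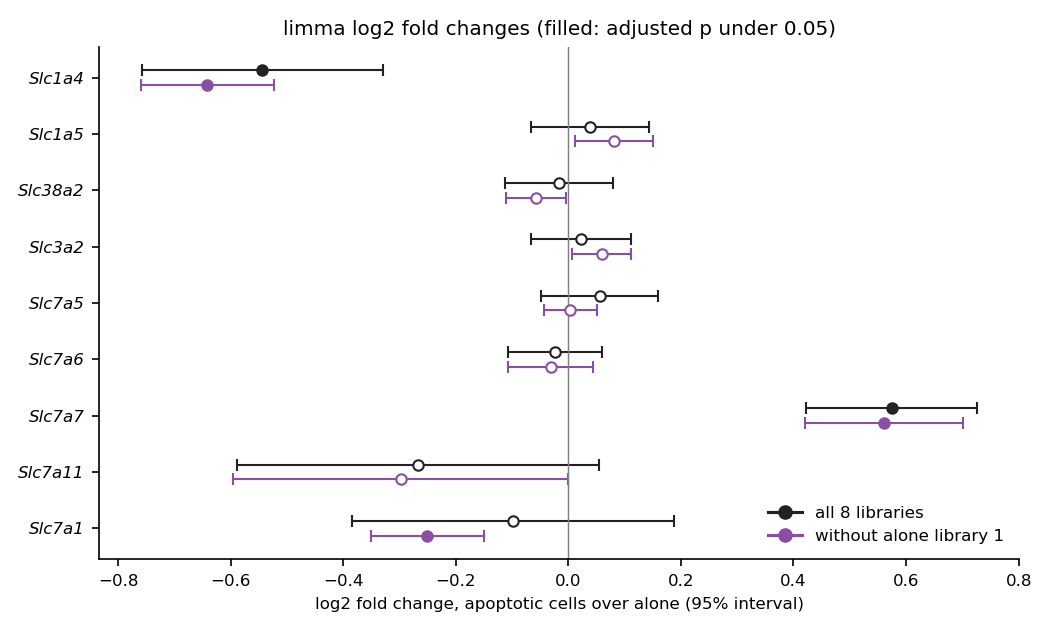
Log2 fold changes (horizontal axis, apoptotic cells over alone) with 95% intervals from limma for the 9 tested transporters, with all 8 libraries (black) and without alone library 1 (purple), filled where the adjusted p is under 0.05. Slc1a4 (-0.54) and Slc7a7 (0.57) are called in both fits, and Slc7a1 only without alone library 1 (-0.25).

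The light chains were also set against Slc3a2 within each library, which needs no scaling between libraries. Slc7a7 less Slc3a2 stood at -4.42, -4.31, -4.25 and -4.11 on the log2 scale alone and at -3.74, -3.79, -3.77 and -3.59 in co-culture. The groups did not overlap, and the mean went up by 0.55 (0.50 to 0.61 with any 1 library left out, exact permutation p = 0.0286, two-sided, adjusted p = 0.114 over the 4 light chains). Since 0.0286 is the smallest p that 4 against 4 libraries allow, a single light chain cannot pass after adjustment over the 4. The difference uses the same Slc7a7 values as the call above, so it is not separate evidence for that call. Slc7a11 less Slc3a2 averaged -5.94 ± 0.27 alone and -6.22 ± 0.20 in co-culture (SD, n = 4 each), a difference of -0.29 (exact permutation p = 0.171, two-sided). For Slc7a6 the difference was -0.05 (exact permutation p = 0.429, two-sided). For Slc7a5 it was 0.03 (exact permutation p = 0.914, two-sided), and -0.06 without alone library 1, in which Slc7a5 less Slc3a2 was 0.47 against 0.72 to 0.83 in the 7 other libraries.

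**Figure D3:**
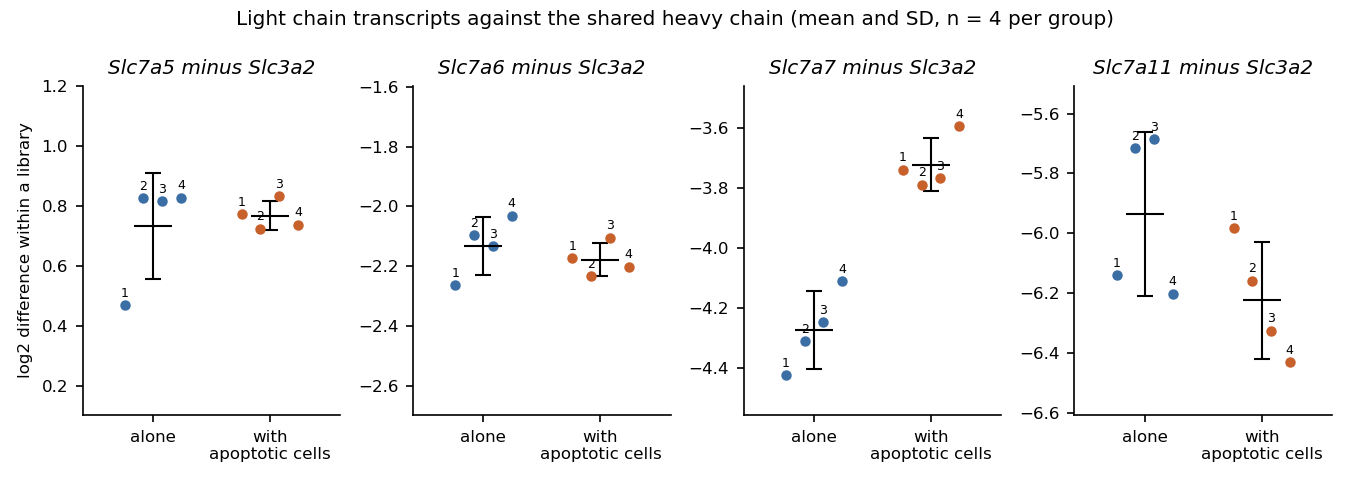
Log2 normalized count of each light chain less that of Slc3a2 in the same library (vertical axes, each spanning the same width), with library numbers and each group shown as mean and SD (4 libraries). Only Slc7a7 has groups that do not overlap, at -4.42 to -4.11 alone and -3.79 to -3.59 with apoptotic cells.

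Slc7a1, the arginine and lysine carrier CAT-1, depended on a single library more than the other 8 tested transporters. It had 933, 1571, 1294 and 1430.3 normalized counts in alone libraries 1 to 4 and 1191, 1271, 1178 and 1160.4 in the co-cultures. Alone library 1 lay below every co-culture, and the other 3 alone libraries lay above every co-culture. With all libraries the means were 1307 ± 274 and 1200.1 ± 48.6 (SD, n = 4 each), with a log2 fold change of -0.10 (SE 0.13, 95% interval -0.38 to 0.19, adjusted p = 0.664 by limma), and of -0.001 without alone library 2. Without alone library 1, Slc7a1 was lower by limma (-0.25, SE 0.05, adjusted p = 0.000378), from 1432 ± 138 in the other 3 alone libraries. Array weights, which count a deviating library less, also called it (-0.21, adjusted p = 0.0137 by limma), while the other 16 alternatives did not (limma, edgeR or DESeq2 adjusted p = 0.000378 to 0.998 over all 18). Without alone library 1, 13.4% of all tested genes were called higher and 12.5% lower, against 1 and 2 of the 9 transporters. Alone library 1 was the lowest or the highest of its group for 6 of the 9 transporters, as was alone library 2. Over all tested genes the shares were 79.02% for library 1 and 55.6% for library 2.

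Among the sodium-coupled carriers of SLC38, Slc38a2 had 5614, 6433, 6226 and 6188 normalized counts alone and 6099, 5938, 6211 and 5898 in co-culture. Again alone library 1 was the lowest, and the other 7 libraries were mixed. The log2 fold change was -0.02 (SE 0.04, 95% interval -0.11 to 0.08, adjusted p = 0.83 by limma), and 0.01 without alone library 2. Slc38a1 is the direct neighbour of Slc38a2 in the RefSeq table, but the deposited table listed it with 0 reads in all 8 libraries, among 201 M reads in total. That count allows up to 3 reads, or 0.0149 RPM (reads per M reads in named genes), for counting error only. Slc38a2 had 5370 to 7716 reads per library. The annotation that the authors counted against is not given in the sources used here.

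The 2 genes whose pattern over the 8 libraries lay closest to that of Slc1a4 were Frem1, an extracellular matrix gene, and Chd5, a chromatin remodeller, out of 8937 genes whose mean reached 100 normalized counts. Their centred log2 values differed from those of Slc1a4 by a root mean square of 0.09 each. Frem1 had a log2 fold change of -0.55 and Chd5 of -0.43. For Slc7a7 the closest were Neu2, a sialidase (0.58, root mean square difference 0.05), and Col6a1, a collagen VI chain (0.58, root mean square difference 0.06). These are descriptions of likeness over 8 libraries that share the group difference.

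Genes around these transporters were taken from lists by name, which were drawn up with earlier results of these data known. The list counts below are therefore descriptions. Of 22 further SLC1, SLC3, SLC7 and SLC38 genes in the table, 10 were tested and none was called by limma, edgeR or DESeq2, with 0 at an unadjusted limma p under 0.05 and a median log2 fold change of -0.05. Over all tested genes 6.36% were higher and 5.31% lower by limma. Slc38a10 stood at 4464 ± 96.1 alone and 4520.2 ± 97.4 normalized counts in co-culture, and the glutamate carrier Slc1a3 at 1487 ± 93.2 and 1460.4 ± 52.3 (SD, n = 4 each), both given after their values were seen. Slc38a7, a lysosomal glutamine exporter, was called lower without alone library 1, again after its values were seen (-0.12, adjusted p = 0.0154 by limma). Slc38a9, the lysosomal arginine sensor of mTORC1, stood at 433 ± 46.9 and 436 ± 19.4 normalized counts (fold change 0.02 in log2, adjusted p = 0.921 by limma), and at -0.07 without alone library 1. No read was found for Slc1a6, Slc7a2, Slc7a9, Slc7a14 and Slc38a11.

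Of 7 tested amino acid transporters of other families, Slc15a3, a lysosomal carrier of histidine and peptides, fell and none rose by limma, with 1 higher at an unadjusted p under 0.05 and none by edgeR or DESeq2. Over all tested genes 6.36% were higher and 5.31% lower. The levels of Slc15a3 were 229 ± 15.0 normalized counts alone and 186 ± 14.2 in co-culture (SD, n = 4 each), -0.30 on the log2 scale (SE 0.08, adjusted p = 0.0332 by limma). Its call was lost in each fit that lacked alone library 3, alone library 4, or a co-culture library other than the second (limma adjusted p = 0.0657 to 0.0966). It was also lost with no filter on low values, and 11 of the 18 alternatives kept it. Without alone library 1, 1 of these genes was higher and 3 were lower, against 13.4% and 12.5% of all tested genes.

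The ATF4 list holds targets and regulators of the amino acid response. Of its 25 tested genes, 13 fell and none rose by limma, with 0 higher at an unadjusted p under 0.05 and none higher by edgeR or DESeq2. Over all tested genes 5.31% were lower and 6.36% higher. The list median was -0.21, against 0.001 over all tested genes. Atf4 itself had 6972 ± 613 normalized counts alone and 4669 ± 57.0 in co-culture (SD, n = 4 each), -0.57 on the log2 scale (SE 0.05, adjusted p = 0.000135 by limma). On the log2 scale the pseudokinase gene Trib3, itself an ATF4 target, fell by 1.04 and the stress gene Nupr1 by 0.71. The 13 falls became 18 without alone library 1, where 12.5% of all tested genes were lower, and 8 without co-culture library 2. Of the 7 transporters named above as ATF4 targets, Slc1a4 fell, at -0.54 on the log2 scale, and Slc7a1 was called lower when alone library 1 was left out. With all libraries Slc7a1 stood at -0.10 (95% interval -0.38 to 0.19) and Slc7a11 at -0.27 (-0.59 to 0.05). Slc7a5, Slc1a5, Slc3a2 and Slc38a2 were between -0.02 and 0.06, with intervals that began at -0.05, -0.07, -0.07 and -0.11.

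**Figure D4:**
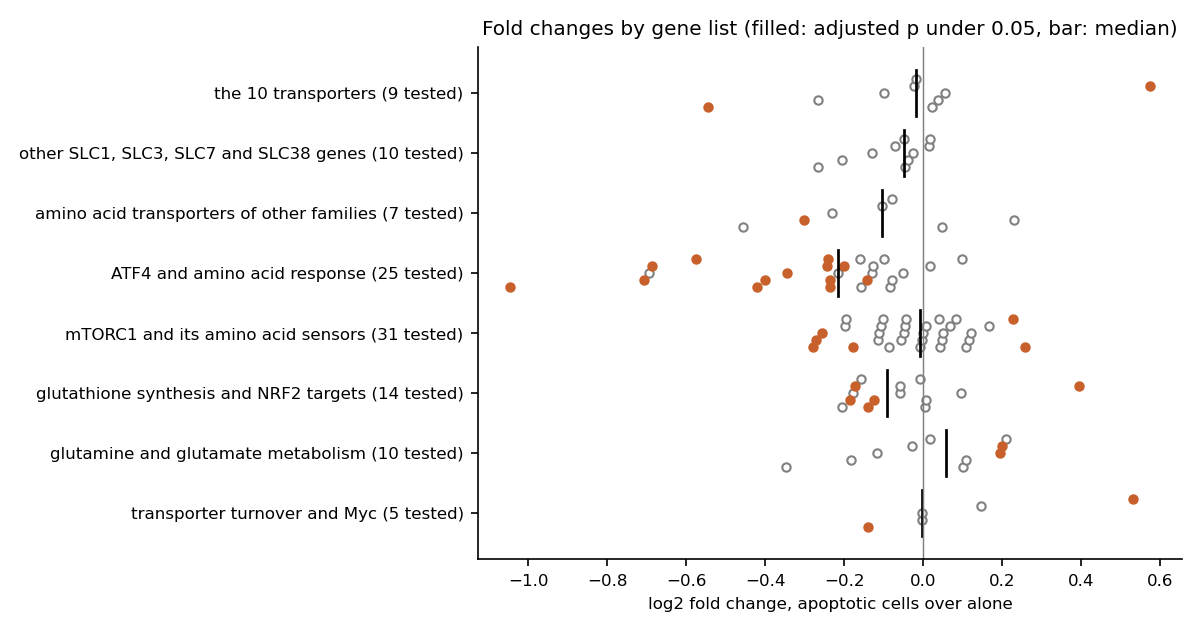
Log2 fold change (horizontal axis, apoptotic cells over alone) of every tested gene in the transporter set and the 7 other lists, filled where the limma adjusted p is under 0.05, with a bar at the list median. The medians of the 9 tested transporters (-0.02) and of mTORC1 and its sensors (-0.01) lie near 0, and that of the ATF4 list lies at -0.21 with 13 filled points, all below 0.

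Of 31 tested components of the mTORC1 pathway, which senses amino acids at the lysosome, 25 were not called, 2 rose and 4 fell by limma, with a median of -0.01. Over all tested genes 6.36% were higher and 5.31% lower. The Rag GTPase genes Rragc (-0.18) and Rragb (-0.26) and the Ragulator subunit gene Lamtor5 (-0.27) fell. Chosen after seeing the values, the rest were Flcn, the folliculin gene (-0.28), which fell, and the mTOR subunit gene Mlst8 (0.26) and the GATOR2 gene Mios (0.23), which rose. Mtor was at 2204 ± 324 and 2251 ± 32.4 normalized counts (fold change 0.04 in log2, adjusted p = 0.794 by limma), and at -0.06 without alone library 1. Without alone library 1, 4 of these genes were higher and 8 lower, against 13.4% and 12.5% of all tested genes. The 2 rises became 0 without co-culture library 2 or 4 and 1 without co-culture library 3.

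Glutathione synthesis uses the cysteine that xCT brings in. Of 14 tested genes of glutathione synthesis and targets of NRF2, 1 rose and 4 fell by limma, with a median of -0.09, where 6.36% of all tested genes were higher and 5.31% lower. Hmox1, haem oxygenase 1, rose by 0.39 (SE 0.03, adjusted p = 7.82e-05 by limma). Nfe2l2, which encodes NRF2, had 6580.1 ± 52.8 normalized counts alone and 5843 ± 84.9 in co-culture, -0.17 on the log2 scale (SE 0.03, adjusted p = 0.00343 by limma). Gclm, the regulatory subunit of the enzyme that makes the glutathione precursor, fell by 0.19. Txnrd1 (-0.14) and Srxn1 (-0.12), antioxidant enzyme genes named after their values were seen, made up the 4. The 4 falls became 6 without alone library 1, where 12.5% of all tested genes were lower. Leaving out alone library 3 or co-culture library 2, 3 or 4 reduced them to 2, and leaving out co-culture library 1 to 1, and the call of Gclm was lost without co-culture library 1 or 2 (limma adjusted p = 0.0524 and 0.0506).

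Of 10 tested genes of glutamine and glutamate metabolism, 2 rose and none fell by limma, with 0 lower at an unadjusted p under 0.05 and none lower by edgeR or DESeq2, against 6.36% higher and 5.31% lower over all tested genes. Got1, the cytosolic aspartate aminotransferase, rose by 0.20 (SE 0.04, adjusted p = 0.0182 by limma), and Ppat, which uses glutamine in purine synthesis, by 0.20 (SE 0.05, adjusted p = 0.0353 by limma). Both calls depended on single libraries. The count became 0 when alone library 3 or co-culture library 1, 3 or 4 was left out, 1 when alone library 4 or co-culture library 2 was, and 3 when alone library 2 was. Without alone library 1 there were 5 rises and 1 fall, against 13.4% higher and 12.5% lower over all tested genes. Of 5 tested genes of transporter turnover and Myc, 1 rose and 1 fell by limma, against 6.36% higher and 5.31% lower over all tested genes. Sgk1, a kinase that raises the surface level of several transporters, had 372 ± 12.1 normalized counts alone, rising to 539 ± 13.7 (fold change 0.53 in log2, SE 0.05, adjusted p = 0.000125 by limma). Sgk3, a related kinase, fell by 0.14 (adjusted p = 0.0447 by limma), a call lost without any 1 library other than alone library 1. The call of Sgk3 was also lost with no filter on low values. Myc, a known activator of glutamine transporter genes that the table lists under a LOC number, was at 4521 ± 285 and 4519 ± 423 normalized counts (fold change -0.003 in log2, adjusted p = 0.982 by limma), and at 0.02 without alone library 1.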

How the data were processed

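The submitters' processing notes name FastQC, STAR, featureCounts and DESeq2 without versions. Genome build, annotation and strand setting: none is given in the sources used here. The authors deposited 1 table of normalized signal per gene and library. Each column behaves as read counts over a constant: 100% of values were whole multiples of 1 read within a tolerance of 0.01 reads. Per the file headers, it also held the authors' log2 fold changes, a test score and p-values, quoted for 2 genes. AC in a column name was read as apoptotic cells and the number as the replicate number of the labels. A row without a gene name (0.14 to 0.176% of reads) was left out.

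The main test was tried on simulated data, in which no library was made to deviate as alone library 1 did. It was limma-trend on log2(normalized count + 1) for the 13494 genes with a mean of at least 10, with group as the only term (R 4.3.3, limma 3.58.1). Fold changes are on this scale and understate those of low genes. The threshold was a Benjamini-Hochberg adjusted p under 0.05 over all tested genes. Since whole reads were recovered, edgeR 4.0.16 (838 genes higher, 726 lower) and DESeq2 1.42.0 (879 and 713) were run as alternatives. Others were the pseudocount, the filter, TMM scaling, a replicate block, array weights and each library left out. Differences between 2 genes within a library were tested by exact permutation.

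Replicates of a group differed by more than counting noise. Chi-square for each degree of freedom was 1.55 to 3.28 for pairs without alone library 1 and 16.6 to 31.1 for pairs with it. List names were matched by symbol, and 3 by LOC number through the RefSeq table, which holds 21621 of 26776 symbols. No sequences were used here. The transporters, lists and tests were chosen with earlier results of these data known. Named genes were the 10 transporters, every called gene of the other transporter lists, the 3 called genes with the smallest adjusted p of each further list, the 2 genes most like each called transporter, and Slc38a9, Atf4, Nfe2l2, Mtor, Myc, Cd3e, Ptprc, Vim and Col1a1.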

Additional observations from a re-analysis of the deposited data

Results flagged for a closer look

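Of 68 groups of 4 libraries examined for the named genes and light chain differences, 7 held a library far from the other 3 by Dixon's criterion, where chance gives about 1 in 20. Alone library 1 was low for Slc7a5, with 8156 normalized counts against 9329 to 9474, and for Slc7a5 less Slc3a2, with 0.47 on the log2 scale against 0.82 to 0.83. Alone library 4 was high for Slc7a6, with 1302 against 1225 to 1229.7. Co-culture library 2 was low for Sgk1, with 519 against 543 to 547. The remaining 3 were at trace levels, with Cd3e at 1.96 in co-culture library 4, Ptprc at 3.04 in alone library 3 and Col1a1 at 1.90 in alone library 1, each against 0 in the other 3 libraries of its group.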

How the results depend on the processing

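The rise of Slc7a7 and the fall of Slc1a4 kept their direction and call in all 18 alternatives. The number of transporters called lower was 2 without alone library 1 and with array weights, where Slc7a1 was added, and 1 in the other 16; 1 was higher in all 18. Leaving out 1 library gave 416 to 1811 genes higher and 356 to 1694 lower over all genes, the fewest without co-culture library 1 and the most without alone library 1. Array weights gave 1804 and 1674. With the replicate block 498 genes were higher and 400.0 lower, and calls were lost for Slc15a3, Sgk3 and Ppat (limma adjusted p = 0.0951, 0.108 and 0.0618). With it the falls on the ATF4, mTORC1 and glutathione lists went from 13, 4 and 4 to 11, 3 and 3, and the mTORC1 rises from 2 to 0. Same-numbered libraries of the groups shared little (correlations of deviations -0.09 to 0.07), and the labels give only a number. Directions that turned were those of small values: Slc38a2 (0.0078 without alone library 2, -0.0577 to 0.0078 over left-out libraries), Slc7a5 less Slc3a2 (-0.056 without alone library 1, -0.056 to 0.064 over left-out libraries), Slc38a9 (-0.066 without alone library 1, -0.055 with array weights, -0.003 without co-culture library 2, -0.066 to 0.053 over left-out libraries), Mtor (-0.060 and -0.031 without alone library 1 and with array weights, -0.060 to 0.114 over left-out libraries) and Myc (0.016 with array weights, 0.001 to 0.034 in the 5 fits that lacked alone library 1, alone library 3, or a co-culture library other than the second, -0.065 to 0.034 over left-out libraries). The cause was not tested. Slc38a1, with no read, could not be tested, and of the tested transporters Slc7a11 had the lowest mean, 81.5 normalized counts.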
